A study of Rattus norvegicus with 6 samples.

Results

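The miR-200 family was followed on 6 one-colour Agilent rat miRNA arrays, 3 of terminal hindgut with an anorectal malformation (ARM) and 3 of healthy terminal hindgut (control). The 6 family members were all array features named rno-miR-200a-3p, rno-miR-200b-3p, rno-miR-200b-5p, rno-miR-200c-3p, rno-miR-141-3p or rno-miR-429, where rno stands for Rattus norvegicus and is left out below. They are 6 of the 758 rat miRNAs on the array, and each was printed as 16 spots. All samples came from fetuses of Sprague Dawley rats. Dams of the ARM group received the teratogen ethylenethiourea (ETU), which blocks thyroid hormone synthesis and causes anorectal malformations in rat fetuses. It was given into the stomach as a 1% solution at 125 mg/kg on gestational day 10. Dams of the control group received distilled water. Fetuses were delivered on embryonic day 20, examined under the microscope for a malformation, and 1 cm of terminal hindgut was frozen for RNA. The ARM group therefore joins ETU exposure with a malformation, and these cannot be told apart here. The sample records give 4 dams treated with ETU. No label gives the litter of a sample, or says whether each came from a single fetus, so p-values measure the spread between these samples only.

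The miR-200 family is a set of epithelial miRNAs made from a pair of gene clusters. Its members repress the transcription factors ZEB1 and ZEB2, which switch off E-cadherin and other epithelial genes, and ZEB factors in turn repress the miR-200 genes. In the gut these miRNAs are typical of the epithelial lining and scarce in muscle and connective tissue. A miRNA recognises its targets mainly through its seed, bases 2 to 8 from the 5′ end. The family has a pair of main seeds: miR-200b-3p, miR-200c-3p and miR-429 carry one, and miR-200a-3p and miR-141-3p the other.

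RefSeq mature sequences (assembly GRCr8) were matched for 3 of the 6 members, and hairpins for all 5 precursors. The mature sequences are shown 5′ to 3′ with the seed in capitals, because the seeds divide the family and because miR-200b-5p, from the opposite strand of its hairpin, has an unrelated seed.
miR-141-3p (chr4:159209540-159209561, minus strand): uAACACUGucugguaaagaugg
miR-200c-3p (chr4:159209969-159209989, minus strand): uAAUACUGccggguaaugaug
miR-200b-5p (chr5:171931548-171931569, minus strand): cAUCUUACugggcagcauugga
miR-200a-5p (chr5:171930770-171930790, minus strand; not a member): cAUCUUACcggacagugcugg
miR-200a-3p, miR-200b-3p and miR-429 are given by name. Counted from the 5′ end, miR-141-3p and miR-200c-3p differed at 4 of the 21 bases compared, as C4U, U9C, U11G and A17U, with the miR-141-3p base first. Only C4U lies in the seed. miR-200b-5p and miR-200a-5p had the same seed. The hairpins of Mir141 and Mir200c lie 346 bases apart on chromosome 4 (chr4:159209525-159210033, minus strand). Those of Mir429, Mir200a and Mir200b lie within 1908 bases on chromosome 5 (chr5:171929682-171931589, minus strand). Both loci are annotated as miRNA genes.

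Each level below is the log2 of the scanner software's background-subtracted intensity after scaling of the arrays, averaged over the probes of a miRNA. Detection of a probe required that at least 0.5 of its spots exceeded the background clearly, by the scanner software's own flag. Detected miRNAs numbered 209 to 246 on the ARM arrays and 207 to 241 on the control arrays, no miRNA spot was saturated, and 5 arrays lay on slide 1 while ARM replicate 3 lay alone on slide 2. Before scaling, ARM arrays were dimmer, with a 75th percentile of 203 to 221 intensity units against 225 to 290 on control arrays, taken over probes that every array detected. With 3 arrays a group, precision is limited throughout. Of 758 miRNAs, 230 had a probe detected on at least 3 arrays and were tested, and all 6 family members were among them.

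The 4 members detected on all 6 arrays, miR-200b-3p, miR-429, miR-200a-3p and miR-141-3p, were higher in ARM on average, by 1.85-fold to 2.04-fold, and none passed the test over all miRNAs. Their median difference was 0.94 on the log2 scale, and that of the 182 miRNAs detected on all arrays was 0.17. None of the 4 was called, while 13.2% of those 182 miRNAs were called in either direction (limma, adjusted p below 0.05) and 1.65% as higher in ARM. At an unadjusted p below 0.05 all 4 were higher in ARM, and so were 16.5% of the 182. The ARM arrays lay wholly above the control arrays for 2 of the 4 and for 24.7% of the 182. The other members, miR-200b-5p and miR-200c-3p, were detected on 3 ARM arrays and 1 control array each, so they entered the test through the ARM arrays. Their mean levels were higher in ARM, neither was called, and the size of their difference depends on signal below detection. Over all 230 tested miRNAs, 13.5% were called in either direction, 2.17% as higher and 11.3% as lower in ARM. In this bulk tissue, fewer cells of a type and less RNA per cell cannot be told apart.

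**Figure D1:**
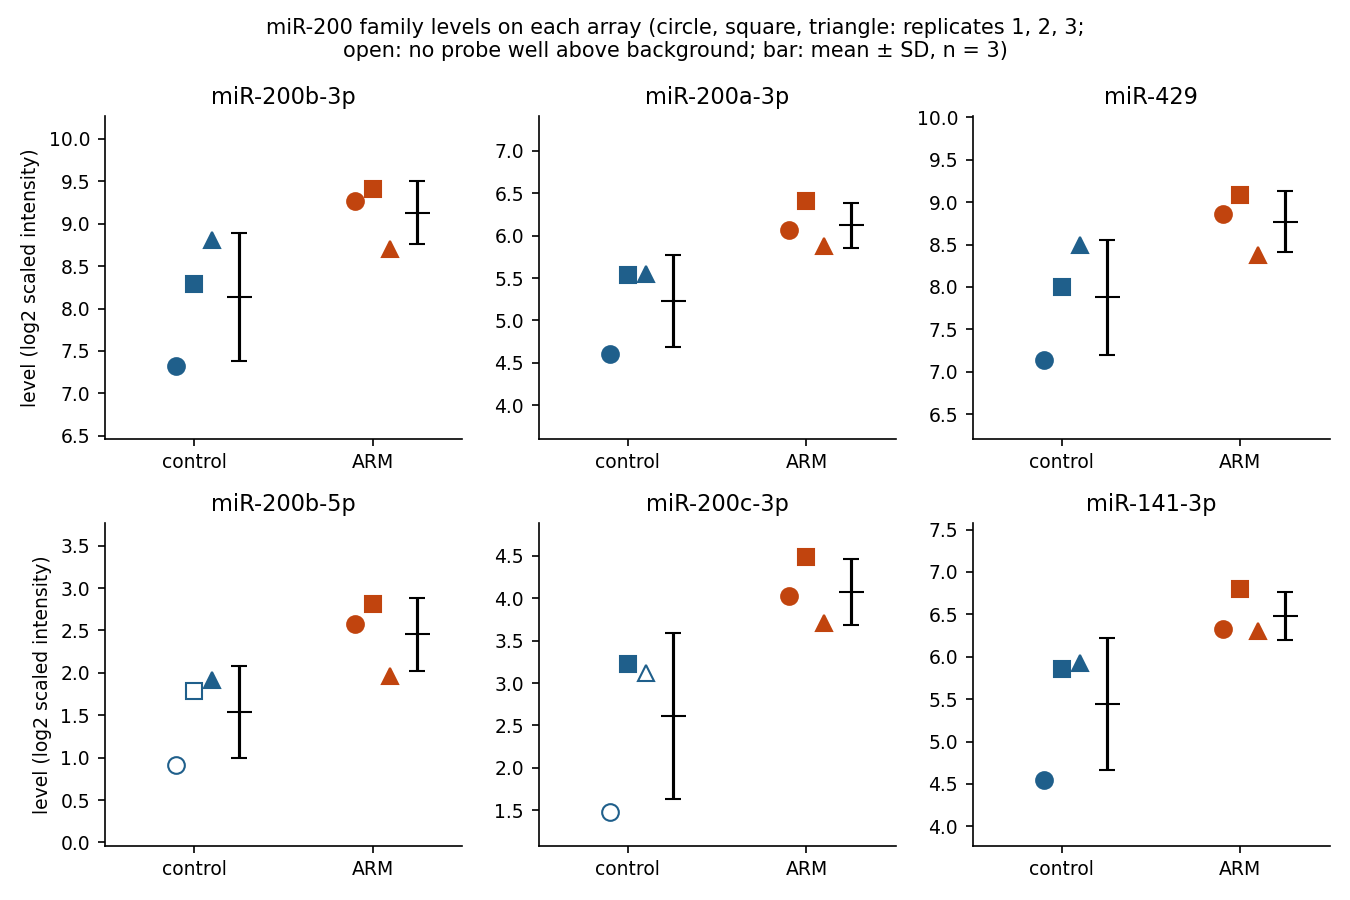
Level of each miR-200 family member on every array, as log2 scaled intensity, with control arrays in blue and ARM arrays in orange, replicates by marker shape, open markers where no probe was well above background, and bars for the mean ± SD of 3 arrays. ARM replicate 2 is the highest and control replicate 1 the lowest array in all 6 panels.

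On chromosome 5, miR-200b-3p, a repressor of ZEB1 and ZEB2, read 9.27, 9.41 and 8.71 on the ARM arrays (replicates 1 to 3) and 7.32, 8.29 and 8.81 on the control arrays, in the same order of replicates. The groups overlapped, since control replicate 3 lay above ARM replicate 3. Means of 9.13 ± 0.37 and 8.14 ± 0.75 (SD, n = 3 each) gave a difference of 0.99 (SE 0.39, 95% interval 0.07 to 1.91, limma adjusted p = 0.107). Both of its probes were detected on all 6 arrays. As measured before scaling, its brighter probe read 957, 1096 and 699 intensity units on the ARM arrays and 363, 674 and 762 on the controls, so that the same arrays overlapped.

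miR-429, which has the same seed as miR-200b-3p and is processed from the same cluster, was at 8.85, 9.08 and 8.38 in ARM and at 7.14, 7.99 and 8.49 in control. The overlap was again of control replicate 3 with ARM replicate 3. Its means of 8.77 ± 0.36 and 7.88 ± 0.68 (SD, n = 3 each) differed by 0.90 (SE 0.36, 95% interval 0.04 to 1.75, limma adjusted p = 0.111).

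miR-200a-3p, the chromosome 5 member with the seed of miR-141-3p, was at 6.07, 6.41 and 5.88 in ARM and at 4.60, 5.54 and 5.55 in control. Here the groups did not overlap, and the lowest ARM array stood 0.33 above the highest control array. The means of 6.12 ± 0.27 and 5.23 ± 0.54 (SD, n = 3 each) differed by 0.89 (SE 0.30, 95% interval 0.18 to 1.60, limma adjusted p = 0.0779).

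The opposite arm of the miR-200b hairpin, miR-200b-5p, is usually the less abundant product. Only 1 of its 4 probes was detected on any array, on all 3 ARM arrays and on control replicate 3. Its level, which includes the undetected probes, was 2.58, 2.81 and 1.97 in ARM and 0.92, 1.78 and 1.92 in control. These levels did not overlap between the groups, by a gap of 0.05 that rests on the undetected probes. The difference was 0.91 (SE 0.34, 95% interval 0.13 to 1.70, limma adjusted p = 0.0914). The detected probe alone was at 4.81 on average in ARM and 3.67 in control, and it overlapped between the groups, because control replicate 3 (19.8 scaled intensity units) slightly exceeded ARM replicate 3 (19.6).

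On chromosome 4, miR-141-3p was at 6.33, 6.80 and 6.30 in ARM and at 4.54, 5.86 and 5.93 in control. The groups did not overlap, and control replicate 1 stood well below the other controls. The means of 6.48 ± 0.28 and 5.44 ± 0.78 (SD, n = 3 each) differed by 1.03 (SE 0.39, 95% interval 0.12 to 1.94, limma adjusted p = 0.0970).

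miR-200c-3p, the cluster partner of miR-141-3p, had the weakest detection among the 3p arms of the family. It was at 4.03, 4.49 and 3.71 in ARM and at 1.48, 3.23 and 3.12 in control, without overlap, but only control replicate 2 of the controls was above detection. The means of 4.07 ± 0.39 and 2.61 ± 0.98 (SD, n = 3 each) differed by 1.47 (SE 0.48, 95% interval 0.35 to 2.59, limma adjusted p = 0.0699), a size that fell to 0.63 with a floor of 10 on the scaled signal and to 0.40 with normexp background correction. Under both of these settings the 4 members detected on all arrays had larger differences. Normexp was run with an offset of 50 intensity units. Such an offset or floor shrinks the log2 differences of dim probes more by construction, so this contrast follows partly from brightness. Of its 2 probes 1 passed detection, on every ARM array and on control replicate 2, and the other on no array. The detected probe read 26.0, 31.5 and 22.0 scaled intensity units in ARM and 6.60, 14.0 and 15.6 in control, with a difference of 1.22 on the log2 scale (SE 0.35, limma adjusted p over all tested probes = 0.0573). When every miRNA was taken from its brightest probe, miR-200c-3p passed (limma, adjusted p = 0.0435). Its brightest probe was undetected on control replicates 1 and 3, so this pass rests partly on control signal below detection. That setting called 45 of 230 miRNAs (19.6%) and 4.35% as higher in ARM, against 13.5% and 2.17% with averaged probes.

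The remaining arms of these precursors on the array, miR-141-5p, miR-200a-5p and miR-200c-5p, were detected on 0 of 6 arrays.

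**Figure D2:**
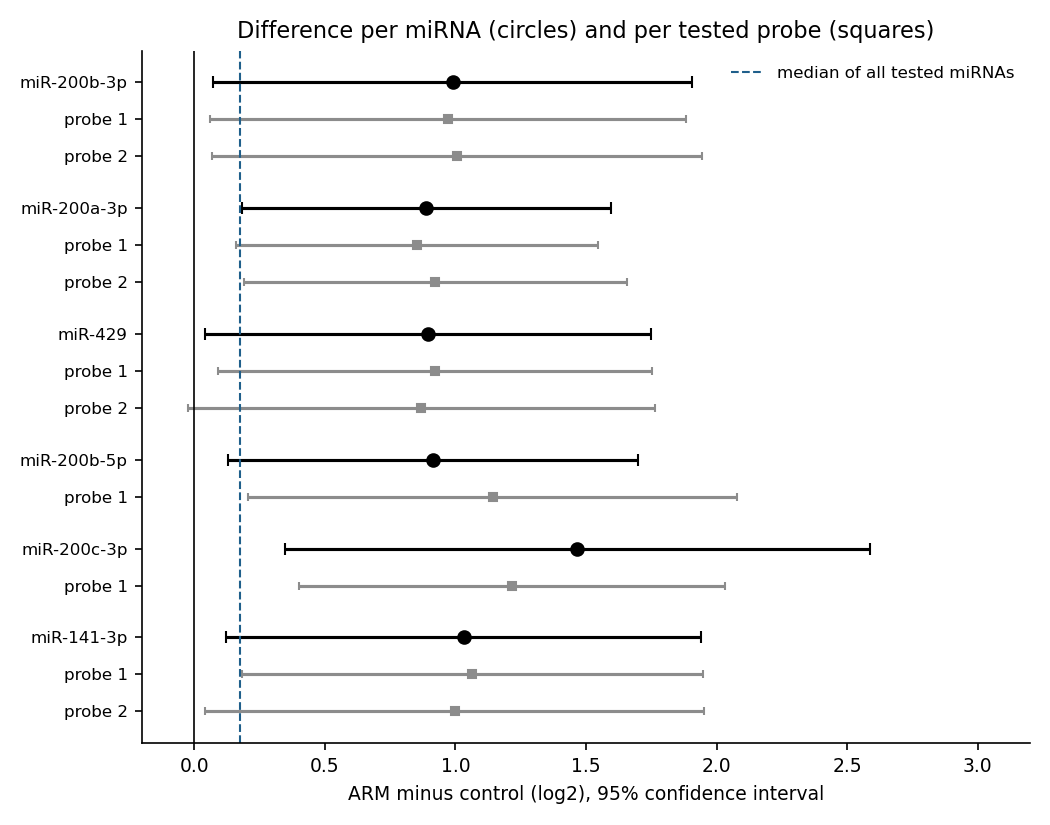
Difference between ARM and control on the log2 scale for each member (circles) and for each of its tested probes (squares), with 95% confidence intervals from limma. Where a member has a pair of tested probes they lie close together, and the interval of 1 probe of miR-429 reaches below 0.

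Of 14 probes 10 were detected on at least 3 arrays and tested, with differences of 0.85 to 1.22 on the log2 scale. Where a member had a pair of tested probes, both gave nearly the same difference, 0.03 to 0.07 apart. For miR-200c-3p and miR-200b-5p only 1 probe each was tested, so agreement between their probes cannot be read. No family probe was called (limma, adjusted p over all tested probes 0.0573 to 0.140). By limma 9 of 10 were higher in ARM at an unadjusted p below 0.05, but only 6 of the 10 were detected on all 6 arrays. The tested probes of miR-200c-3p and miR-200b-5p were each detected on 3 ARM arrays and 1 control array, so they entered through the ARM arrays. For miR-141-3p and miR-200a-3p, 1 probe each was detected on 3 ARM and 2 control arrays. Of all 390 tested probes, 14.9% were called in either direction and 2.05% as higher in ARM, and 16.9% were higher in ARM at an unadjusted p below 0.05. Probes of 1 miRNA share their target and are not replicates. Spots of 1 probe on 1 array varied by a median SD of 0.07 on the log2 scale (range 0.01 to 0.34 over 54 detected pairs of probe and array).

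**Figure D3:**
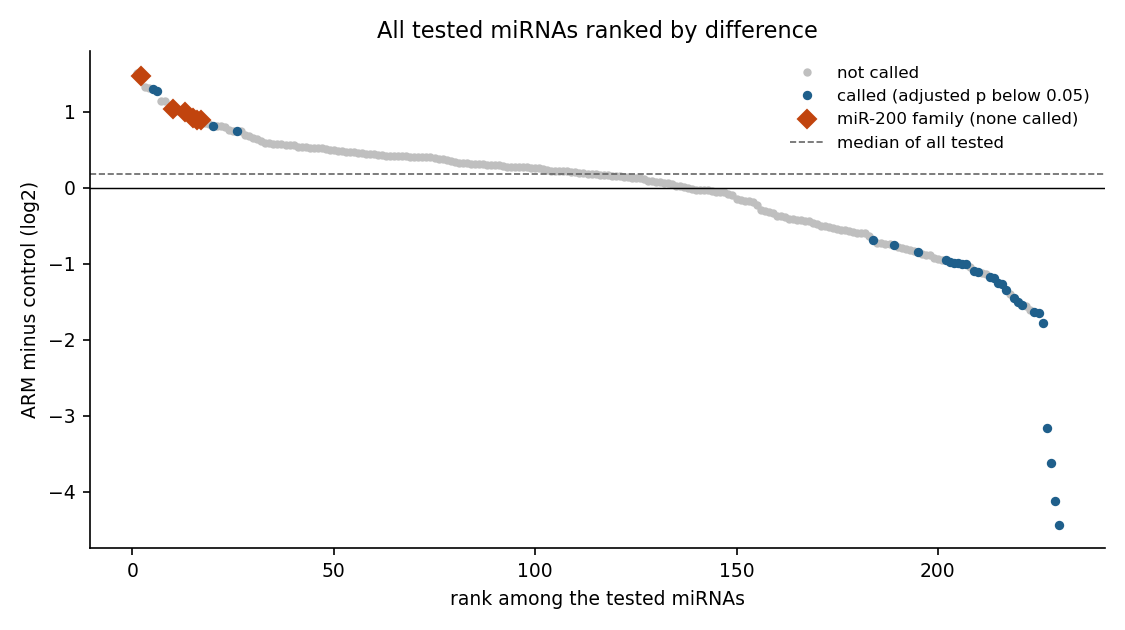
All 230 tested miRNAs ranked by their difference between ARM and control (log2), with miRNAs called by limma in blue and the miR-200 family as orange diamonds. The 4 members detected on all arrays hold ranks 10 to 17, miR-200c-3p rank 2 and miR-200b-5p rank 15, and none is called, while some miRNAs called as higher in ARM have smaller differences.

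Ranked by difference, the members detected on all arrays stood at places 10, 13, 16 and 17 of 230. miR-200c-3p at place 2 and miR-200b-5p at place 15 rest partly on signal below detection. Only 5 miRNAs of the whole array passed as higher in ARM. The spread within the controls was wider than within ARM for every member, with SDs of 0.54 to 0.98 against 0.27 to 0.43. Control replicate 1 was the lowest array for all 6 members, ARM replicate 2 the highest, and ARM replicate 3 the lowest of the ARM arrays for all 6.

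Single arrays moved both the size of the differences and the calls. Without control replicate 1 the differences shrank to between 0.55 and 0.92, with a median of 0.60, and no member passed (limma, adjusted p 0.119 to 0.254). For the 4 members detected on all arrays they were 0.55 to 0.60. At that setting 0 of 220 miRNAs were called by limma. At an unadjusted p below 0.05, 2 of the 4 members detected on all arrays were higher in ARM, against 11.8% of all tested miRNAs. Without control replicate 3, miR-200b-3p (1.33, limma adjusted p = 0.0429) and miR-429 (1.21, limma adjusted p = 0.0434) passed as higher in ARM. These are 2 of 6 members at a setting that called 92 of 229 miRNAs (40.2%), 18.8% as higher in ARM. Without ARM replicate 2, the highest array for every member, the differences were 0.76 to 1.29 and none passed (limma, adjusted p 0.188 to 0.267). The 4 members detected on all arrays then differed by 0.77 to 0.90. At that setting 0 of 224 miRNAs were called. At an unadjusted p below 0.05, 0 of the 4 members detected on all arrays were higher in ARM, against 20 of the 224. With arrays weighted by their quality all members except miR-141-3p passed (limma, adjusted p 0.0389 to 0.0569 over the 6), 3 of them detected on all arrays. That weighting called 87 of 230 miRNAs (37.8%), 16.1% as higher in ARM. Within slide 1, which leaves out ARM replicate 3, the differences were 1.01 to 1.65, and none passed (limma, adjusted p 0.0931 to 0.146). The 4 members detected on all arrays differed by 1.01 to 1.20 there. Within that slide 0 of 216 miRNAs were called by limma. At an unadjusted p below 0.05, all 4 members detected on all arrays were higher in ARM, against 10.2% of all tested miRNAs. A block for slide returns nearly these differences by construction, since ARM replicate 3 is the only array on slide 2.

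**Figure D4:**
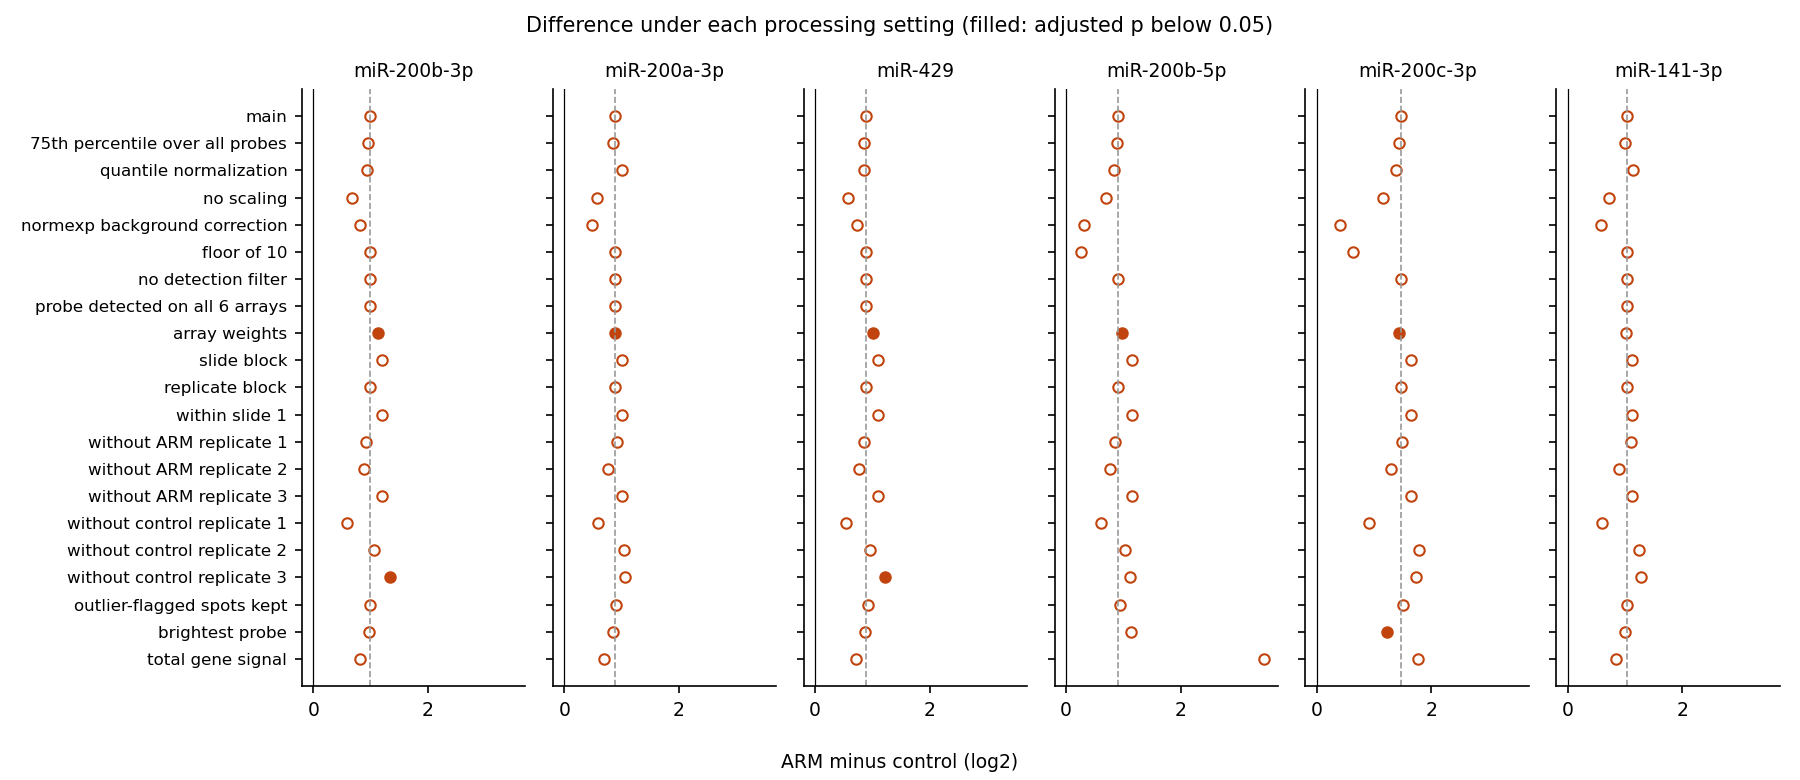
Difference between ARM and control (log2) of each member under the main setting and 20 alternatives, filled where the adjusted p fell below 0.05. Every point lies above 0, the points without control replicate 1 lie left of the main value for all members, and filled points occur with array weights, without control replicate 3 and with the brightest probe.

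Every member kept a positive difference in each of the 20 alternative settings that held it. For the 4 members detected on all arrays the smallest was 0.49, for miR-200a-3p with normexp background correction. miR-200b-5p and miR-200c-3p entered the main test through the ARM arrays, where they are higher, so their sign adds little. These settings reuse the same arrays and are not independent. Normexp background correction gave 0.31 to 0.81, with miR-200c-3p at 0.40 and miR-200b-5p at 0.31. A floor of 10 on the scaled signal left miR-200c-3p at 0.63 and miR-200b-5p at 0.25. Without scaling, the median of all tested miRNAs moved from 0.17 to -0.13, and the median of the 4 members detected on all arrays moved from 0.94 to 0.63. At an unadjusted p below 0.05 by limma, 0 of the 4 were then higher in ARM, against 7 of 230 miRNAs. In the main setting all 4 were, against 42 of 230. With no detection filter 0 of the 4 were, against 73 of 758. Relative to the median of all tested miRNAs, the median of these 4 was 0.77 in the main setting, 0.46 with normexp background correction and 0.44 without control replicate 1.

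Within the family, the array-to-array pattern was compared after each miRNA's own mean was subtracted. miR-200b-3p and miR-429 were the closest of the 15 pairs, with a root mean square difference of 0.07 on the log2 scale over the 6 arrays. They share a cluster and a seed, and they also had the highest mean levels of the family. The part of brightness in these distances was not tested. The 4 members detected on all arrays were 0.07 to 0.21 apart in their 6 pairs. miR-141-3p and miR-200a-3p, which share a seed but not a chromosome, were 0.16 apart, and miR-200a-3p and miR-200b-3p, neighbours on chromosome 5 with different seeds, were 0.21 apart. miR-200a-3p and miR-429, of the same cluster but with different seeds, were 0.17 apart. miR-200c-3p was 0.27 to 0.40 from every other member, at 0.40 from miR-429 and 0.35 from miR-200b-3p, which share its seed. On control replicates 1 and 3 no probe of it was detected.

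The distance between miR-200c-3p and miR-141-3p within an array, set to a mean of 0, was 0.32, 0.31 and 0.03 on the ARM arrays and -0.45, -0.01 and -0.19 on the control arrays. The ARM arrays lay above the controls, by 0.43 on average. This rests on a miRNA near the detection limit, where each array's dimmest detected probe stood between 3.58 and 4.07. For miR-200b-3p against miR-429 the same quantity stayed between -0.13 and 0.10 on all arrays, and was 0.09 higher in ARM on average. For the 3p against the 5p arm of miR-200b it lay between -0.23 and 0.25, and the groups overlapped.

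**Figure D5:**
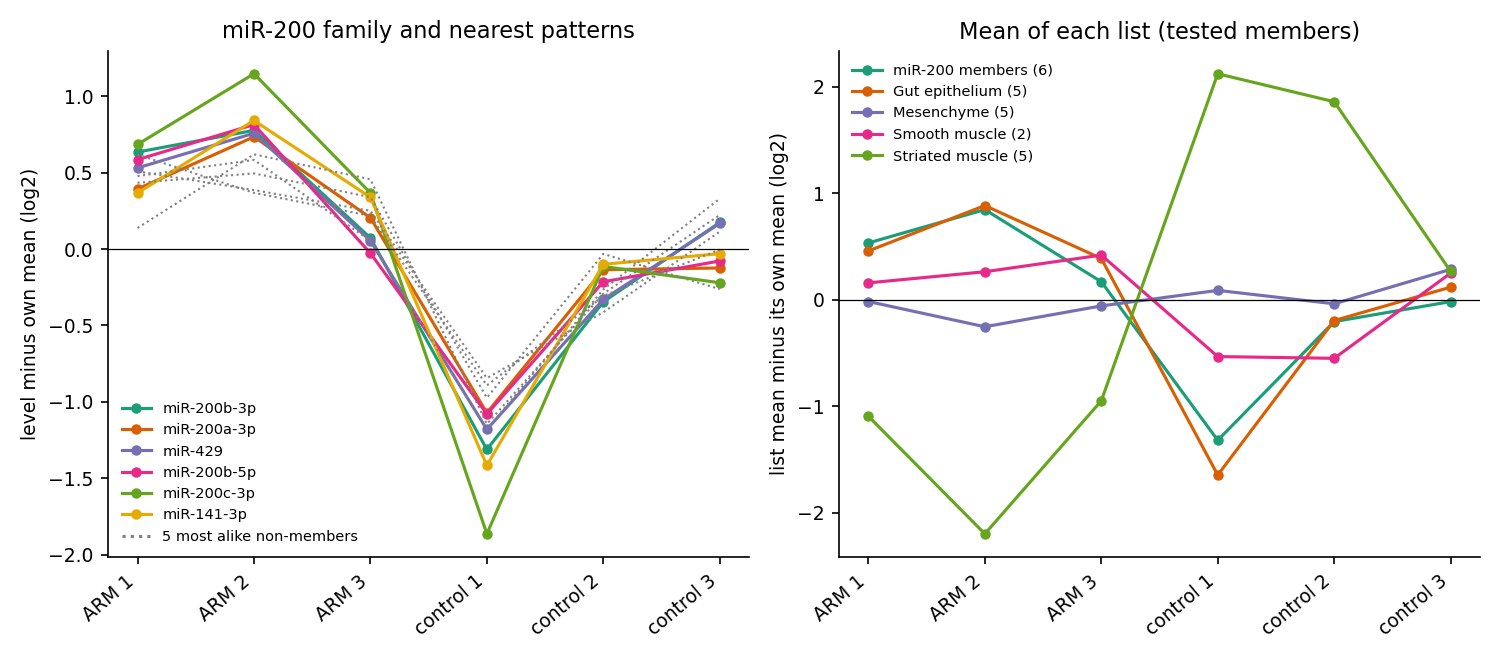
Left, level of each member minus its own mean (log2) across the 6 arrays, with the 5 most alike other miRNAs dotted. Right, mean level of the tested members of 5 lists minus its own mean (log2), with the number of tested members in brackets. The gut epithelium list follows the miR-200 family, and the striated muscle list runs opposite to it.

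The miRNAs with the most similar pattern were sought among the 224 tested miRNAs outside the family. Likeness was the root mean square difference, over the 6 arrays, from the mean centred level of the 4 members detected everywhere. The nearest was miR-196c-5p (0.15), followed by miR-203a-3p (0.21), a miRNA of differentiating stratified epithelium, miR-183-5p (0.23), a miRNA of sensory and epithelial cells, miR-3559-5p (0.23) and miR-10a-5p (0.25), which lies among the Hox genes. The median over the 224 was 0.64. None of these 5 was called (limma, adjusted p 0.0636 to 0.168), and their differences were 0.74 to 0.85. This distance counts the size of a swing as well as its shape. By construction, near miRNAs therefore have differences like those of the family, and miRNAs with large opposite differences lie far away. The least alike among the listed tissue miRNAs were miR-206-3p of skeletal muscle (2.93), miR-122-5p of hepatocytes (2.93) and miR-1-3p of striated muscle (2.59).

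Other epithelial miRNAs were counted beside the family. All 5 gut epithelium miRNAs tested (miR-192-5p, miR-194-5p, miR-215, miR-375-3p and miR-31a-5p) had positive differences, with a median of 1.31, and 0 of 5 passed. Their mean level was 6.28, 6.70 and 6.21 in ARM and 4.17, 5.62 and 5.94 in control, with control replicate 1 again the lowest. Of the stratified epithelium miRNAs, miR-203a-3p differed by 0.81 (limma, adjusted p = 0.121) and miR-205 by 0.21 (limma, adjusted p = 0.413). In the miR-183 cluster 1 of 3 members passed, miR-182 (1.02, limma adjusted p = 0.0385). It was detected on all 6 arrays, but its level averaged over probes was low, at 2.75 in ARM and 1.73 in control. Among all tested miRNAs, 59.6% had a positive difference.

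The epithelial label was read against markers of the other tissues a piece of hindgut wall holds. Epithelial miRNAs were detected in every sample, but so were mesenchymal, smooth muscle, endothelial, striated muscle and erythroid ones, so each sample is a mixture. Of 5 tested striated muscle miRNAs 4 passed as lower in ARM (11.3% of all tested miRNAs did so), with a median of -3.16, and the log2 of their summed level was 6.80 to 8.07 in ARM and 9.65 to 11.8 in control. The 6 arrays ordered from the lowest to the highest mean miR-200 level were exactly the order from the highest to the lowest mean of the striated muscle list. That list mean was 4.96, 3.85 and 5.10 in ARM and 8.17, 7.91 and 6.32 in control. The gut epithelium list mean ordered the arrays as miR-200 did. In each of these list means ARM and control arrays did not overlap, which fixes part of the match. The part of striated muscle in the miR-200 difference was not tested.

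The remaining marker lists moved less or held fewer members. The liver miRNA miR-122-5p, detected on 4 of 6 arrays, passed as lower in ARM (-4.44), and both tested erythroid miRNAs of 3 on the array did so with a median of -1.71 (summed log2 level 6.12 to 6.75 in ARM and 7.69 to 8.54 in control). Of 5 tested mesenchymal miRNAs none passed, with a median of -0.29 and a summed level of 11.2 to 11.5 in ARM and 11.5 to 11.9 in control. The smooth muscle pair miR-143-3p and miR-145-5p had a median of 0.56 and did not pass (summed 9.60 to 9.69 against 8.88 to 9.66). For the endothelial miR-126a-3p the difference was -0.04, and for the 3 tested leukocyte miRNAs the median was 0.16. Of the 6 neuronal and glial miRNAs, 3 were detected on no array, among them miR-124-3p, and the 1 tested, miR-218a-5p, differed by 0.32. The part of these tissues in the miR-200 difference was not tested.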

How the data were processed

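Agilent Feature Extraction 10.7.1.1 produced the intensity of each spot that the authors deposited. Per the file headers it removed background and spatial trends within an array and did not scale arrays to each other. Its total gene signal per miRNA, also an intensity deposited by the authors, served as an alternative. The deposited value table held the same processed intensity spot by spot (largest difference 0), so the fit without scaling is also the fit on that table. Groups and replicate numbers come from the sample titles. Control spots and outlier-flagged spots were left out, and spots of a probe were averaged. For scaling, the 75th percentile of 300 probes (those detected on every array) was set equal between arrays, after which values were floored at 1 and converted to log2. Of the values of family probes, 8.33% lay at the floor. The groups were compared with limma 3.58.1 in R 4.3.3 (lmFit, then eBayes) over the 230 miRNAs, or the 390 probes, detected on at least 3 arrays, and adjusted p-values (Benjamini-Hochberg) below 0.05 were called; the fit was tested on simulated data. Intervals are from the moderated fit. Alternatives covered scaling, background correction, floor, detection filter, probe summary, array weights, slide and replicate blocks, and each array left out. All members are named, with the 5 most alike and 3 least alike miRNAs and up to 2 of each list where needed. The members and lists were chosen with earlier results of these data known.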

Additional observations from a re-analysis of the deposited data

How the results depend on the processing

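All members tested kept their positive sign in every alternative, though miR-200b-5p and miR-200c-3p entered the main test through the ARM arrays. The number of called miRNAs, 31 in the main setting, was 16 with normexp background correction, 87 with array weights, and 0 with no detection filter, with slide as a block or within slide 1 (limma; 134, 78 and 71 at an unadjusted p below 0.05), and it ranged from 0 to 92 when 1 array was left out: 92 without control replicate 3, 10 without ARM replicate 1, and 0 when control replicate 1 or 2 (64 and 74 at an unadjusted p below 0.05 by limma), or ARM replicate 2 or 3 (56 and 71), was dropped. The calls split into 5 higher and 26 lower in the main setting, 1 and 30 without scaling, and 10 and 28 with quantile normalization. Of the 6 members, 5 were called with array weights (miR-200a-3p 0.88, miR-200b-3p 1.12, miR-200b-5p 0.97, miR-200c-3p 1.43, miR-429 1.02), 1 with the brightest probe (miR-200c-3p 1.22), and 0 to 2 when 1 array was left out, where miR-200b-3p ranged from 0.60 to 1.33 and miR-429 from 0.55 to 1.21. The cause of these changes was not tested. With the total gene signal, miR-200b-5p was at 3.45 (SE 2.48) and miR-200c-3p at 1.76 (SE 2.79), neither called. At an unadjusted p below 0.05 by limma, 0 of the 6 members were higher in ARM with that signal, against 11 of 230 miRNAs. With the replicate block 0 miRNAs were called (limma, 73 at an unadjusted p below 0.05) and 0 members (adjusted p 0.132 to 0.185). Deviations from the group mean correlated at -0.07, -0.28 and -0.21 between samples of the same number. With 3 arrays a group this cannot tell whether such samples were paired, and no label pairs them. Signal near background limits miR-200c-3p and miR-200b-5p.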
